A study of Mus musculus with 15 samples.

Results

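The genes examined were Elmo1, Elmo2, Dock1, Dock2, Dock5, Rac1 and Rac2, 7 of the 21911 protein-coding genes of the GENCODE M21 annotation on mouse chromosomes 1 to 19, X and Y. They encode ELMO scaffolds, DOCK exchange factors and the Rac GTPases that these complexes switch on. Elmo1 was selected on its H3K27ac calls in these same libraries, where it stood among the genes with the greatest length of regions seen in WT and not in cKO cells, and the other 6 genes were added as its partners by what is known of them. The H3K27ac values below are therefore a description of a chosen gene and carry no test.

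Macrophages derived from bone marrow (BMDMs) of C57BL/6 mice aged 8 to 10 weeks were cultured for 6 to 8 days in medium with 20% L929 conditioned medium, and their chromatin was profiled by CUT&RUN, in which a nuclease tethered by an antibody cuts DNA around the target and the freed fragments are sequenced. The series had 15 samples, of which 10 gave a list of enriched regions, 2 for HA-tagged H3.3 and, for each of H3K27ac and H3K36me3, 2 from WT and 2 from cKO cells. The other 5 were IgG controls. WT cells carried floxed H3f3a and H3f3b, the genes for the histone variant H3.3, without Cre. H3.3 conditional knockout (cKO) cells carried the same floxed alleles and Cre from the Lyz2 (LysM) locus, which is active in myeloid cells, so any cell that escaped Cre still has H3.3. The H3.3-HA cells had an HA tag at H3f3b and no deletion. Acetylation of histone H3 at lysine 27 (H3K27ac) marks active promoters and enhancers, and trimethylation at lysine 36 (H3K36me3) is laid down along transcribed gene bodies.

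Members of the ELMO family bind DOCK proteins, and together they form an unconventional exchange factor that loads GTP onto Rac. Active Rac drives actin polymerization, and in macrophages this pathway is known for the engulfment of apoptotic cells and for migration. Dock2 is largely restricted to blood cells and serves their migration, Dock1 is the broadly expressed partner of ELMO in engulfment, and Dock5 is known from osteoclasts, which share their precursors with macrophages. Rac1 is expressed in most tissues, whereas Rac2 is mostly found in blood cells and is part of the phagocyte NADPH oxidase.

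The libraries differed in ways that touch every gene. They held 5365319 to 6951296 tags for H3.3-HA, 16444864 to 29988098 for H3K27ac and 14027132 to 23782914 for H3K36me3. Regions held 24.1% and 21.5% of the tags in the WT H3K27ac libraries and 11.8% and 17.8% in the cKO libraries. For H3K36me3 the shares were 47.1% and 50.2% in WT and 19.3% and 46.5% in cKO, so cKO replicate 1 stood apart, with 90.7 Mb called against 163.5 to 170.5 Mb in the other libraries. The total length called in cKO was 0.658 of that in WT for H3K27ac and 0.761 for H3K36me3. All 5 macrophage markers (Adgre1, Itgam, Csf1r, Spi1, Cd68) had an H3K27ac region in all 4 libraries, and none of 3 T cell, 3 B cell and 3 fibroblast markers had one in any. Of the neutrophil markers Mmp8 had regions in 2 WT libraries and 1 cKO library and Camp in 1 cKO library, and of the erythroid markers Klf1 in 1 cKO library. At the targeted gene H3f3b, H3K27ac regions covered 23.9% and 24.1% of the body in WT and 55.4% and 73.6% in cKO, so the lists did not show the deletion and WT and cKO refer to libraries as labelled.

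Elmo1 is a long gene, and its sequences are shown first because the positions of its regions carry the main result. It lies on the plus strand of chromosome 13 (20090596 to 20608353, mm10), spans 518 kb and has 22 exons in transcript Elmo1-201. For each gene a window was formed from its body and the 5 kb upstream of it. A merged H3K27ac region, the union of overlapping or touching regions of the 4 lists, is called lost when both WT libraries and neither cKO library overlapped it by at least 1 bp, gained in the opposite case, and kept when all 4 did. The sequences are the promoters of Elmo1 and Dock1, whose starts carried H3K27ac calls in different libraries, the 300 bases at the middle of the widest lost and the widest kept region of Elmo1, and the same for the widest lost region of Elmo1, Dock1 and Dock2 that held a searched motif. Promoters are from RefSeq (GRCm38.p6, 250 bases before to 50 after the start), and the other sequences are the plus strand of that assembly. Capitals mark a match of either strand to a motif of PU.1 (GAGGAAGT), AP-1 (TGANTCA), C/EBP (TTNCGNAA) or the interferon response element (GAAANNGAA), where N is any base.
Elmo1 promoter, chr13:20090257-20090556, plus strand: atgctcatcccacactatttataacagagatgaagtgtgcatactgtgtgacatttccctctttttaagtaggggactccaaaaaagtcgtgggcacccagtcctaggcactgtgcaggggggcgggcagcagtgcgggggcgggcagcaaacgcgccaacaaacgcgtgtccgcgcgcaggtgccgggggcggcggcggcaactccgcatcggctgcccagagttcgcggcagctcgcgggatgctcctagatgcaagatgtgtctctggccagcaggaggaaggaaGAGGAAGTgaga
Dock1 promoter, chr7:134670437-134670736, plus strand: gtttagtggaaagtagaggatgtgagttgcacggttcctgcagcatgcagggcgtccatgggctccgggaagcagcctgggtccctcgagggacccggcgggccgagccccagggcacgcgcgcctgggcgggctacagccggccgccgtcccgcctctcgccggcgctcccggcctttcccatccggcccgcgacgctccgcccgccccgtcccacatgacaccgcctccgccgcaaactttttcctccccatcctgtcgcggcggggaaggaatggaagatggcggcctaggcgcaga
Elmo1 widest lost region, intron 15, chr13:20404575-20404874: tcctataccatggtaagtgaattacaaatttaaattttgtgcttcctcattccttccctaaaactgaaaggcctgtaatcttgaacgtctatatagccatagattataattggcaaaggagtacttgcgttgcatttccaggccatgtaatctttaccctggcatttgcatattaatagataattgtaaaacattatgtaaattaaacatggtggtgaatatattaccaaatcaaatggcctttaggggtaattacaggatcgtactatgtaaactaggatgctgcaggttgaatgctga
Elmo1 widest kept region, intron 3, chr13:20208407-20208706: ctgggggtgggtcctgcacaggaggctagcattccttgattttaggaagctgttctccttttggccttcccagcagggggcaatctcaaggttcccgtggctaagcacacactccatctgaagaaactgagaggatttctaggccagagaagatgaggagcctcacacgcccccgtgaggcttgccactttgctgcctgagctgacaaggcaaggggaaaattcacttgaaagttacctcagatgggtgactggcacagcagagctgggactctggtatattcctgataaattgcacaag
Elmo1 lost region with a C/EBP match, intron 1, chr13:20162663-20162962: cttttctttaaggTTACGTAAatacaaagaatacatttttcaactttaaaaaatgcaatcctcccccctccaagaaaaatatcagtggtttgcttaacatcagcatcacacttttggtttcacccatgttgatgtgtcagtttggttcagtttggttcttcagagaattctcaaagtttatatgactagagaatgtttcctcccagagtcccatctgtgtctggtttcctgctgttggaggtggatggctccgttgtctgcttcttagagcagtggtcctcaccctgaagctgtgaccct
Dock1 lost region with an interferon response element match, intron 23, chr7:134811617-134811916: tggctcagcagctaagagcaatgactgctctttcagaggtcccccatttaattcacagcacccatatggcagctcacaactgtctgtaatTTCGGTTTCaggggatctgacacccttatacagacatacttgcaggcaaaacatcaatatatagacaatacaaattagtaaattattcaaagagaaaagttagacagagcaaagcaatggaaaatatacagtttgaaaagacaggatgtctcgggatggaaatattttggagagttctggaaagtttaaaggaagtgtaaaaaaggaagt
Dock2 lost region with an AP-1 match, intron 27, chr11:34319613-34319912: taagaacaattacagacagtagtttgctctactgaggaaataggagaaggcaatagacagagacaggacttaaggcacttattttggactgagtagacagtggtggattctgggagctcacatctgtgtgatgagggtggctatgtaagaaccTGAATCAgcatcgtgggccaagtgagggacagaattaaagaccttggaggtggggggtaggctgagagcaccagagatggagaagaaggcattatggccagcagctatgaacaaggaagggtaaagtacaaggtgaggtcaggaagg

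Promoter entries were matched for 4 of the 7 genes (Elmo1, Elmo2, Dock1 and Dock2). The Elmo1 promoter held a PU.1 match close to the start, as did 3.20% of the 32851 promoters in the table. The Dock1 promoter held none of the motifs and had a GC content of 70.7% against 60.0% for Elmo1. Among the 28 lost regions of Elmo1, the middle 300 bases matched PU.1 in 1, AP-1 in 1, C/EBP in 1 and the interferon response element in 3. Over the 64 lost regions of the 7 genes the motifs were found in 4.69%, 6.25%, 1.56% and 7.81%, and over all 12771 lost regions of the series in 3.97%, 13.4%, 1.18% and 11.7%. Median GC content was 42.0% in the lost regions of the 7 genes and 45.0% in their 27 kept regions, against 42.7% and 45.7% in the series. Soft-masked repeats made up a median of 12.9% of their lost and 15.0% of their kept regions, and 18.3% and 19.8% in the series. These matches are letters in a window and do not show binding.

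The first comparison asked where H3K27ac over Elmo1 differed between WT and cKO cells. The window of Elmo1 held 105 and 94 H3K27ac regions in WT and 33 and 45 in cKO. They covered 34.0% and 24.6% of the window in WT and 9.64% and 11.7% in cKO, means of 29.3% ± 6.68 and 10.7% ± 1.47 (SD, n = 2 each). Both cKO libraries lay below both WT libraries, as they did in 38.2% of 12747 genes with an H3K27ac region (17.4% lay above). The mean cKO length was 0.365 of the WT length, and 0.562 once each library was scaled to its own total called length, a scaling after which 22.7% of these genes were lower and 37.6% higher in both cKO libraries. A lower share of cells with the mark and less of the mark in each cell cannot be told apart in such bulk libraries. The cKO libraries also had a lower share of tags in regions (11.8% and 17.8% against 24.1% and 21.5%), whose part was not tested.

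Of the 58 regions called in both WT libraries at Elmo1, 28 were lost (48.3%), 15 were kept and 15 were called in a single cKO library. Another 57 merged regions were called in a single WT library alone. The lost regions summed to 45686 bp, had a median width of 1166 bp and all lay in introns. Their share was above that of all regions in the series, where 12771 of 35166 (36.3%) were lost, while the median share was 42.9% over 1518 genes with a body of 100 kb or more. Such long genes had a median of 2 lost regions and 2082 bp, so Elmo1 stood far above them in number, in a window that was also longer. By lost length Elmo1 ranked 3 of 9819 genes with a region in both WT libraries, and by lost length per window 67 of 1518 long genes. At least 1 lost region was present in 48.4% of the 9819 genes and in 82.1% of the long ones, so having one was common. With a WT library left out, the other deciding alone, 57 or 71 regions were lost at Elmo1 (without WT replicate 1 and without WT replicate 2), and with regions of at least 1 kb alone 18 were.

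**Figure D1:**
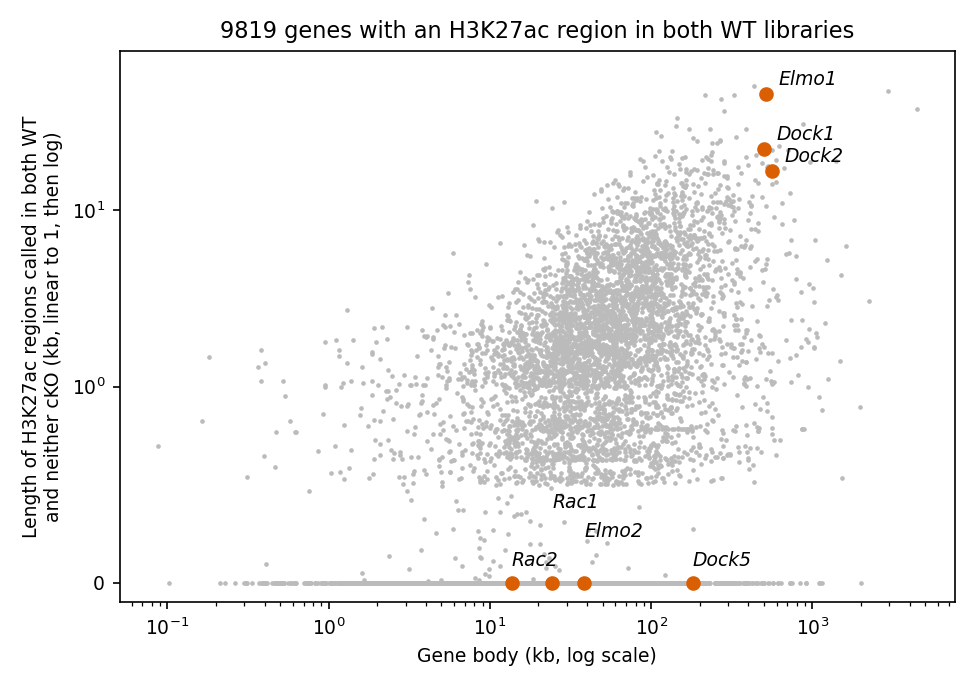
Summed length of lost H3K27ac regions (kb, linear to 1 and log above) against gene body length (kb, log scale) for 9819 genes (grey) with the 7 genes in orange. By lost length Elmo1, Dock1 and Dock2 rank 3, 25 and 66 of the 9819 genes, and Elmo2, Dock5, Rac1 and Rac2 sit at 0.

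The lost regions were unevenly placed along Elmo1. The first lay 66.8 kb from the start, and intron 1 held 6 kept regions before it. By distance, 3 lost and 7 kept regions lay in the first 100 kb, 8 and 3 in the next 100 kb, 5 and 1 between 200 and 300 kb, 7 and 3 between 300 and 400 kb, and 4 and 1 between 400 and 500 kb. A last lost region lay at 508 kb, in intron 20. The called share of the first 100 kb was 47.9% and 36.4% in WT and 27.6% and 28.1% in cKO. Between 300 and 400 kb it was 48.5% and 32.9% in WT and 7.16% and 9.59% in cKO. The groups did not overlap in either stretch as called. With each library scaled to the mean total called length, the first stretch had 36.4% and 33.2% in WT and 40.7% and 30.9% in cKO, which overlapped, while both cKO libraries stayed below WT in each of the later 100-kb stretches.

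Intron 15 held the widest lost region of Elmo1, 4334 bp at 314 kb (20402559 to 20406892), called over 4334 and 1671 bp in the WT libraries. Other lost regions of that intron measured 3714 bp at 307 kb (20395622 to 20399335), 3775 bp at 334 kb (20422519 to 20426293) and 1316 bp at 318 kb. Between the lost regions, the kept region of 8079 bp at 343 kb was called over 7516 and 5895 bp in WT and 1399 and 2053 bp in cKO. As called, the kept regions were thus also narrower in cKO. These lengths were not scaled, and the total H3K27ac length called in cKO was itself 0.658 of that in WT. In total the 15 kept regions of Elmo1 were called over 70768 and 58385 bp in WT and 38737 and 41631 bp in cKO, a ratio of 0.622 against 0.822 over all kept regions of the series. In 14 of the 15 the called length was shorter in both cKO than in both WT libraries, against 42.9% of kept regions in the series.

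**Figure D2:**
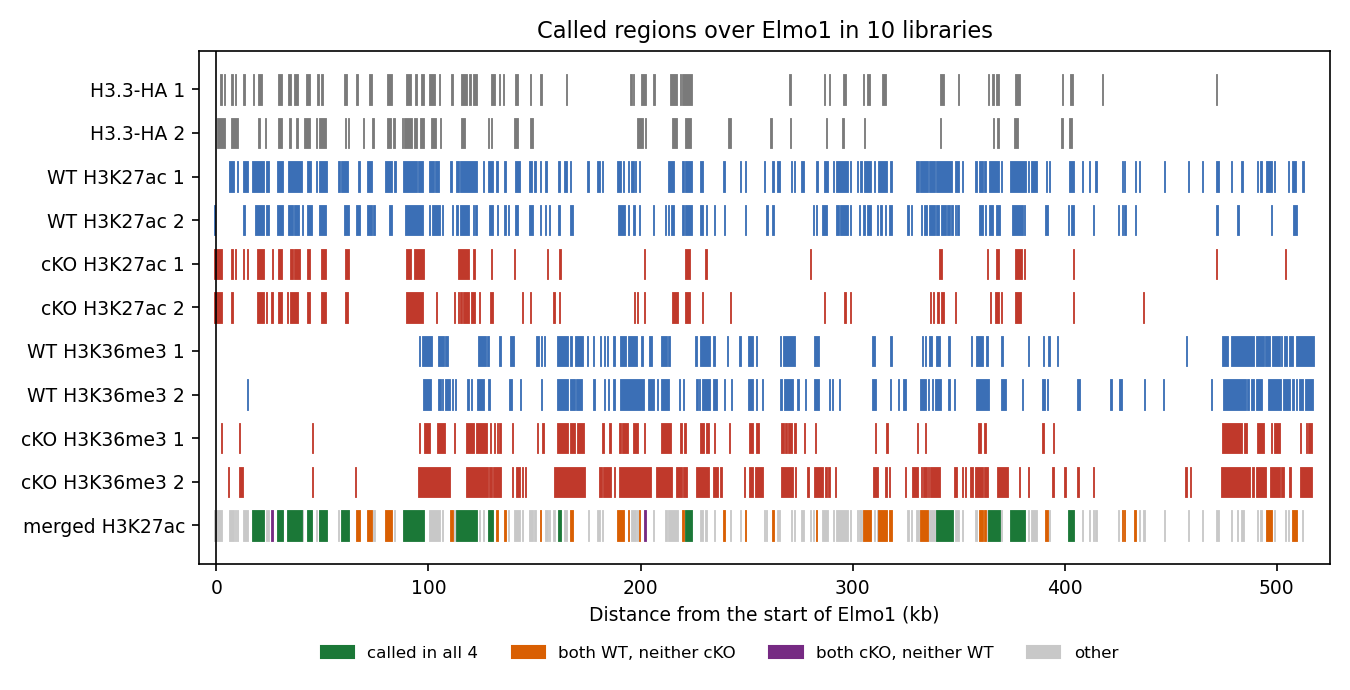
Regions called in each of the 10 libraries (WT blue, cKO red, H3.3-HA grey) by distance from the start of Elmo1 (kb), with merged H3K27ac regions at the bottom colored by class. The 28 lost regions (orange) begin at 66.8 kb, beyond 6 kept regions (green) nearer the start.

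The start of Elmo1 differed in the opposite direction. A merged region of 3721 bp over it (20089527 to 20093247) was called over 0 and 501 bp in WT and 3714 and 3672 bp in cKO. Within 1 kb of the start of Elmo1-201 the called length was 0 and 430 bp in WT and 2001 and 2001 bp in cKO, and both cKO libraries lay above both WT libraries. No share of all gene starts with this order stands beside it. Because 1 WT library touched it, this region is not among the 2 gained regions of Elmo1, which lay in intron 1 at 26.2 kb (1137 bp) and in intron 13 at 202 kb (689 bp). Gained regions were present in 17.3% of 12747 genes with any H3K27ac region and in 25.4% of 1805 long ones. At the start of the shorter transcript Elmo1-202, farther downstream, all 4 libraries were called over the full 2001 bp.

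Of Dock1, Dock2 and Dock5, Dock1 had the highest share of lost regions. It lies on the plus strand of chromosome 7 (134670654 to 135173639) and spans 503 kb. Its window held 47 and 34 H3K27ac regions in WT and 1 and 4 in cKO, covering 7.15% and 5.30% of the window in WT and 0.0986% and 0.424% in cKO. The groups did not overlap, and the cKO length was 0.0420 of the WT length, or 0.0596 after scaling to the total called length. Of its 22 regions in both WT libraries 21 were lost (95.5%, 22325 bp) and none was kept. By lost length Dock1 ranked 25 of 9819 genes, and by lost length per window 246 of 1518 long genes. Among the 101 genes with at least 20 regions in both WT libraries the share lost ranged from 13.8% to 95.5% with a median of 45.5%, and Dock1 alone was at its top. Dock1 overlaps Fam196a, and none of its lost regions lay within that gene. Without WT replicate 1 and without WT replicate 2 the number lost was 33 and 47, and with regions of at least 1 kb it was 5.

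The lost regions of Dock1 were narrower than those of Elmo1, with a median of 916 bp, and all were intronic. A group of 4 lay in intron 1 between 19.5 and 27.4 kb from the start, the widest of them 2470 bp (134691768 to 134694237), called over 2392 and 2290 bp in WT. The widest lost region of Dock1, 2691 bp at 440 kb in intron 35, was called over 1794 and 2605 bp. At the Dock1 start a region of 1348 bp (134669373 to 134670720) was called in WT replicate 2 alone, over its whole length. The Dock1 start thus carried no cKO call, whereas the Elmo1 start did in both cKO libraries.

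Dock2 kept its start and lost scattered intronic regions. The gene spans 557 kb of chromosome 11 (34226815 to 34783892, minus strand). Regions numbered 60 and 55 in WT and 24 and 26 in cKO, and covered 15.3% and 13.5% of the window in WT and 5.63% and 8.08% in cKO, with no overlap between groups. Of 27 regions in both WT libraries 15 were lost (55.6%, 16736 bp, median width 923 bp) and 6 were kept. Dock2 ranked 66 of 9819 genes by lost length, and 407 of 1518 long genes by lost length per window. The kept region over the start measured 16856 bp and was called over 15088 and 16614 bp in WT and 10822 and 15948 bp in cKO, so the groups overlapped there. A kept region of 23654 bp in intron 2, centered 49.9 kb from the start, was called over 20291 and 21766 bp in WT and 9919 and 14531 bp in cKO. Dock2 overlaps Fam196b, and 2 of its lost regions, in intron 27 at 399.6 and 464.1 kb, lie within that gene as well. Without WT replicate 1 and without WT replicate 2 the number lost at Dock2 was 39 and 40, and with regions of at least 1 kb it was 2.

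**Figure D3:**
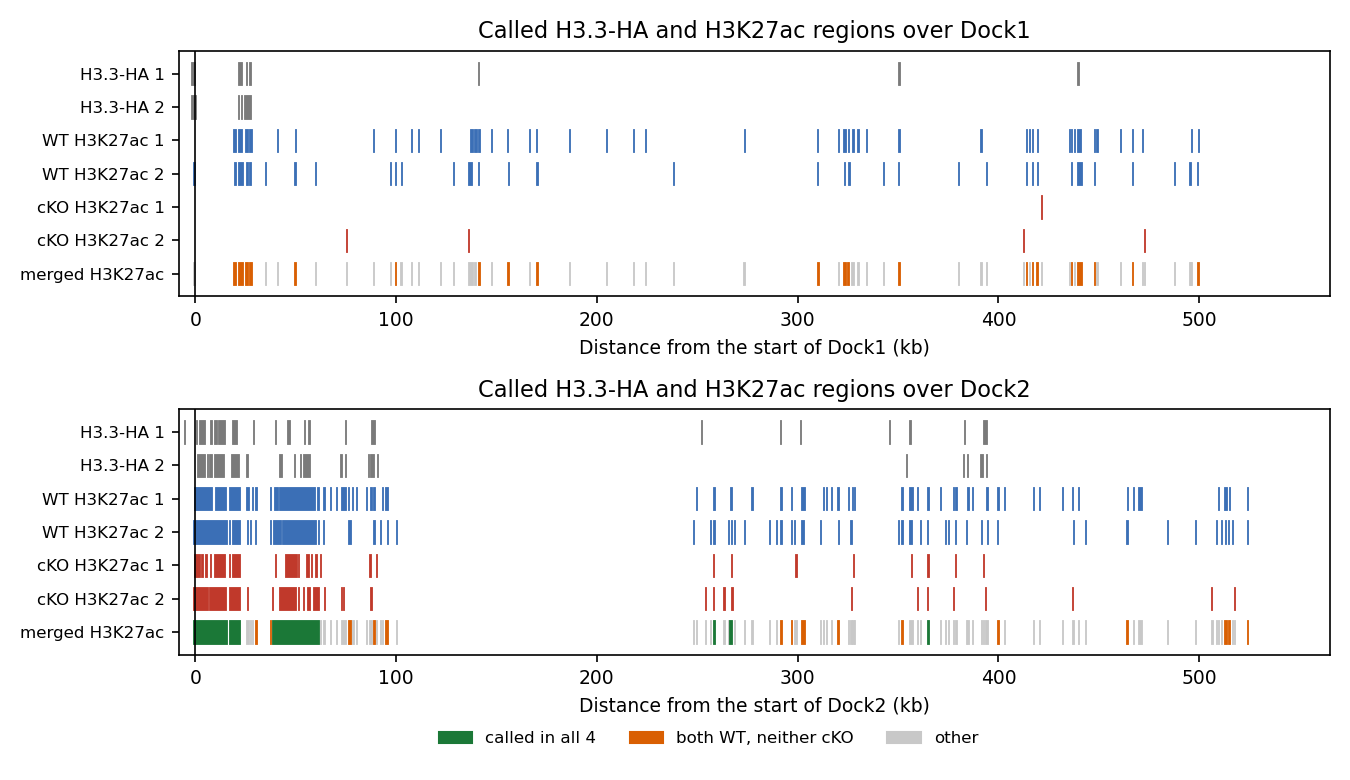
H3.3-HA and H3K27ac regions called over Dock1 and Dock2 in each library by distance from the start (kb), with merged H3K27ac regions colored by class. Dock1 has 1 and 4 cKO regions along its whole window, and Dock2 keeps broad regions (green) near its start.

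The remaining partners had no lost region, and they had few regions to lose. Elmo2, the second ELMO gene, is 38.4 kb long (chromosome 2, minus strand) and held 6 and 3 H3K27ac regions in WT and 3 and 5 in cKO. Its window was covered over 12670 and 5139 bp in WT and 8305 and 11331 bp in cKO, which overlapped. A kept region of 11032 bp spanned its start, called over 9607 and 4010 bp in WT and 7804 and 9071 bp in cKO. Within 1 kb of the start of Elmo2-202 itself the called length was 1933 and 0 bp in WT and 894 and 1312 bp in cKO, so WT replicate 2 touched the merged region elsewhere. Rac1, on the minus strand of chromosome 5, was covered over 14336 and 7318 bp in WT and 5541 and 11964 bp in cKO, again with overlap. The region over the Rac1 start was called over 2385 and 2610 bp in WT and 0 and 4054 bp in cKO, so a single cKO library lacked it. Rac1 overlaps Daglb along 2309 bp, where a region cannot be assigned to 1 of the 2 genes.

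At Rac2, on the minus strand of chromosome 15, the region of 3107 bp over the start was kept, with 2253 and 1858 bp in WT and 2332 and 2784 bp in cKO. Both cKO libraries lay above both WT libraries, by less than the distance between the replicates of either group. The same order was found in 17.65% of the 15390 kept regions of the series. Dock5, on the minus strand of chromosome 14 and 181 kb long, had more H3K27ac in cKO, 3092 and 3967 bp of its window in WT against 7243 and 8082 bp in cKO, without overlap. Its largest contribution was a region of 3981 bp in intron 1, 44.3 kb from the start (67887130 to 67891110), called over 0 and 1002 bp in WT and 3981 and 3872 bp in cKO. No H3K27ac region lay within 1 kb of the start of Dock5-201 in any of the 4 libraries. Scaled to the total called length, Dock5 (ratio 3.28) was joined by Elmo2 and Rac2 in having both cKO libraries above both WT libraries. Elmo2 then had 141 and 68.7 bp per Mb called in WT and 180 and 183 in cKO (ratio 1.73), and Rac2 34.8 and 24.9 in WT and 50.5 and 55.7 in cKO (ratio 1.78). These directions are to be read against the 37.6% of all genes that were higher after scaling. Rac1 still overlapped (ratio 1.21), and Dock2 stayed lower in both cKO libraries (ratio 0.718).

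Altogether 64 of 116 regions in both WT libraries were lost at the 7 genes (55.2%, against 36.3% over the series). A lost region was present in 3 of the 7 genes (48.4% of all genes tested had one), a number that was 6 and 7 without either of the WT libraries (replicates 1 and 2 in turn) and 5 with cKO replicate 2 left out. For the 6 partners of Elmo1 the count was 36 of 58 (62.1%), all of them at Dock1 (21 of 22) and Dock2 (15 of 27). Elmo2, Dock5, Rac1 and Rac2 had none. The median share over long genes was 42.9%. When each list was cut to its 35018 widest regions, so that all 4 lists held the same number, the lost share was 37.5% at Elmo1 (15 of 40), 100% at Dock1 (8 of 8) and 53.8% at Dock2 (7 of 13), against 25.5% over the series. Keeping the first 35018 regions in file order, a setting added after seeing the data, gave 35.9%, 100% and 36.4% (4 of 11 at Dock2) against 24.4%.

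**Figure D4:**
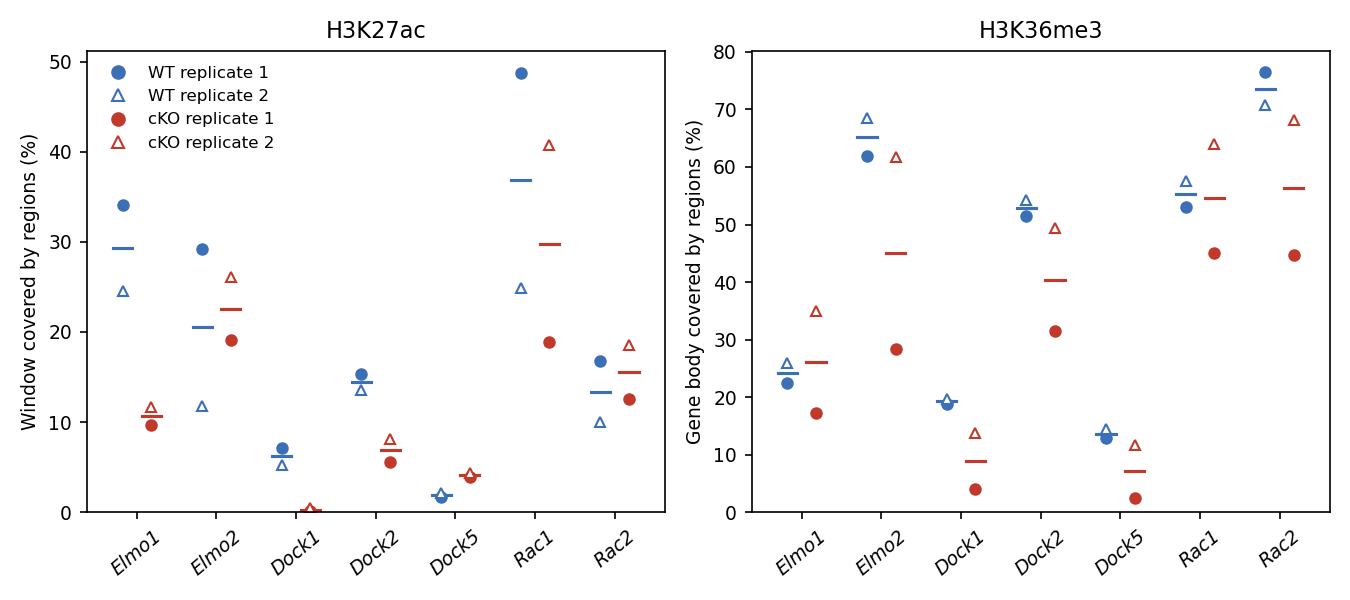
Share of the window covered by H3K27ac regions (left) and of the gene body covered by H3K36me3 regions (right), in percent, for each library of the 7 genes, where bars are means of 2. Unscaled WT and cKO H3K27ac values are apart at Elmo1, Dock1, Dock2 and Dock5, and H3K36me3 cKO replicate 1 is the lowest library at each gene in these unscaled values.

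H3K36me3 along the gene bodies was compared next, as a mark of transcription in libraries other than those on which Elmo1 was selected. The genes were chosen with earlier results of these data known, so full independence from that choice cannot be claimed. At Elmo1 it covered 22.5% and 25.9% of the body in WT and 17.3% and 35.0% in cKO, means of 24.2% ± 2.38 and 26.1% ± 12.5 (SD, n = 2 each). The cKO libraries lay on both sides of WT, and the difference of 1.97 percentage points had an exact permutation p of 1.00 (two-sided). Scaled to each library's total called length, the Elmo1 window had 712 and 785 bp of H3K36me3 per Mb called in WT and 989 and 1107 in cKO, a ratio of 1.40 with both cKO libraries above WT. Dock1 was covered over 18.9% and 19.7% of its body in WT and 4.09% and 13.7% in cKO, a difference of -10.4 points without overlap. The exact permutation p of 0.333 is the smallest that 2 against 2 libraries can give, and was 0.467 after Benjamini-Hochberg adjustment over the 7 genes, so no comparison of this size could pass 0.05.

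Dock2 was covered over 51.4% and 54.3% in WT and 31.5% and 49.4% in cKO (a difference of -12.4 points), and Dock5 over 12.8% and 14.5% in WT and 2.50% and 11.8% in cKO (-6.53 points). Rac2 carried 76.5% and 70.7% in WT and 44.7% and 68.1% in cKO (-17.2 points). Elmo2 had 62.0% and 68.5% in WT and 28.4% and 61.7% in cKO (-20.2 points). In these 4 genes, as in Dock1, both cKO libraries lay below both WT libraries as called. After scaling this held at Dock1, Dock5 and Elmo2, with ratios of 0.559, 0.609 and 0.885, whereas Dock2 and Rac2 overlapped, both with a ratio of 1.03. At Elmo2 the scaled groups were barely apart, with 145.6 and 154.4 bp per Mb in WT and 120.3 and 145.2 in cKO. At Rac1 the values were 53.1% and 57.6% in WT and 45.1% and 64.0% in cKO, which overlapped (-0.813 points, exact permutation p 1.00). The scaled Rac1 values were 79.2 and 82.5 bp per Mb in WT and 121 and 95.5 in cKO, higher in both cKO libraries. Body cover was lower in both cKO libraries in 38.4% of 11145 genes with an H3K36me3 region and higher in 8.12%, and the median difference over these genes was -6.35 points (-3.19 over 1453 long ones). After scaling the shares were 29.8% lower and 28.6% higher, and the median difference was -0.154 points. The library with the fewest tags in regions, cKO replicate 1, was the lowest at each of the 7 genes before scaling, and its part in the differences was not tested.

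Along Elmo1 the H3K36me3 cover was low over the first 100 kb, between 2.97% and 8.15% in the 4 libraries. It rose to 35.2% and 37.8% in WT between 100 and 200 kb, where cKO had 37.0% and 58.8%. At the 3' end, beyond 500 kb, it was 76.5% and 73.8% in WT and 23.7% and 51.1% in cKO. Both cKO libraries were lower in that last stretch both as called and after scaling, and not over the whole body. After scaling they were higher than WT in the stretches from 0 to 300 kb and from 400 to 500 kb. Between 100 and 200 kb the scaled cover was 31.6% and 32.6% in WT and 60% and 52.9% in cKO. The groups overlapped between 300 and 400 kb. Of the merged H3K36me3 regions of Elmo1, 2 were lost, 19 kept and 5 gained, where the lost ones measured 953 and 962 bp. Dock1 had 6 lost, 13 kept and 1 gained, and Dock2 had 6, 18 and 4. Both WT libraries called 27 H3K36me3 regions at Elmo1, 30 at Dock1 and 33 at Dock2. The lost shares were thus 7.41%, 20.0% and 18.2%. No share over all H3K36me3 regions of the series stands beside these counts.

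**Figure D5:**
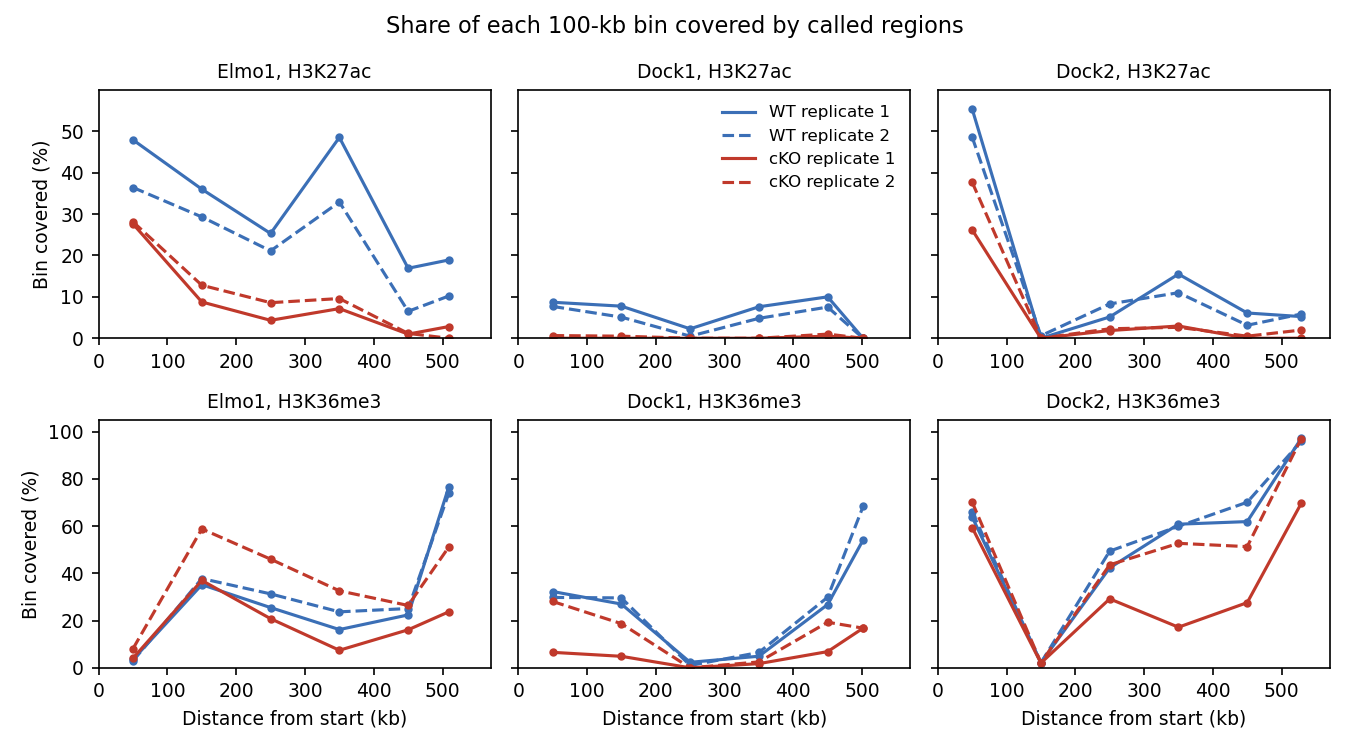
Share of each 100-kb bin covered by H3K27ac (top) and H3K36me3 (bottom) regions along Elmo1, Dock1 and Dock2, in percent, for each WT (blue) and cKO (red) library, where the last bin is shorter. Over Elmo1 the unscaled H3K27ac lines of WT lie above cKO in every bin (after scaling the first bin overlaps), whereas the H3K36me3 lines of cKO replicate 2 lie above WT up to 500 kb.

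H3.3-HA was then set beside the H3K27ac regions. H3.3-HA regions covered 13.9% and 12.1% of the Elmo1 body, 13.0% ± 1.30 (SD, n = 2), against medians of 0.692% over 2490 long genes and 0.282% over all genes. These medians were not limited to genes with H3K27ac, and 65.6% of the long genes had any H3.3-HA region. Among the long genes of Rac signaling named below, mean body cover was 28.0% at Abi1 and 12.0% at Vav3. It was 7.40% at Trio, 6.17% at Dock4, 4.82% at Tiam1, 3.22% at Dock11 and 1.32% at Arhgap15. Dock1 had 1.27% and 1.02%, Dock2 4.25% and 5.57%, and Dock5 5.23% and 4.13%. Among the short genes, Rac1 had 29.0% and 47.5%, Elmo2 20.6% and 34.4%, and Rac2 0% and 27.9%, so Rac2 rested on a single library. On this measure Elmo1 lay above the 3 DOCK genes in both replicates.

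Kept H3K27ac regions were overlapped by H3.3-HA more often than lost ones. Of the 15 kept H3K27ac regions of Elmo1, 14 were overlapped by H3.3-HA in both replicates, against 2 of its 28 lost regions. Seen from H3.3-HA, 23 of the 57 and 20 of the 43 regions over the Elmo1 window touched kept H3K27ac, and 10 and 4 touched lost H3K27ac. Over the 7 genes these counts were 22 of 27 kept (81.5%) and 6 of 64 lost (9.38%), and over the series 61.3% of kept and 25.5% of lost regions. Kept regions are wider and so more readily overlapped, with a median of 4198 bp against 1166 bp for lost ones at Elmo1 and 2980 against 996 bp in the series. The 2 lost regions of Elmo1 with H3.3-HA lay in intron 1 at 81.2 kb and in intron 15 at 307 kb. Dock1 had 3, which were neighbors in intron 1 between 22.3 and 27.4 kb, and Dock2 had 1. H3K36me3 regions of both WT libraries overlapped 15 of 15 lost H3K27ac regions of Dock2, 10 of 28 of Elmo1 and 3 of 21 of Dock1, against 43.2% of the lost regions in the series.

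A list of 46 further genes of Rac signaling gave the wider pathway, of which 38 had an H3K27ac region in both WT libraries and 30 had a lost one (78.9%, against 48.4% of all genes tested). Among the 19 of these with a long body 18 had a lost region, which is to be read against the 82.1% of long genes above. By role, lost regions were present in 6 of 7 ELMO and DOCK genes, 9 of 9 exchange factors, 10 of 12 effectors, 3 of 6 GTPase-activating and inhibitor genes, 2 of 3 adaptors and 0 of 1 GTPase, counts with no background of their own for the lengths of these genes. Among the greatest lost lengths were those at Dock4 (17930 bp in 13 regions), the exchange factors Vav3 (17560 bp in 17) and Trio (11950 bp in 9), and Abi1 (9581 bp in 7), a subunit of the WAVE complex that carries Rac signals to actin. The greatest gained lengths were at Tiam1 (2481 bp), Dock11 (1983 bp) and Arhgap15 (1927 bp). Gained regions were present in 10 of the 43 listed genes with an H3K27ac region in any library. The share was 17.3% over all such genes and 25.4% over those with a long body. Each of the lost lengths named here was below those of Elmo1 and Dock1, and those of Dock4 and Vav3 were above that of Dock2.

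For H3K36me3, 41 of the 46 genes had a region, 12 were lower in both cKO libraries (38.4% of all genes were) and 6 higher (8.12% were), and the median difference was -3.05 points. After scaling 8 of the 41 were lower and 19 higher, with a median of 6.25 points. Over all genes with an H3K36me3 region the scaled shares were 29.8% lower and 28.6% higher. The scaled median over those genes was -0.154 points. Among the greatest falls of the mean were those at the adaptor Crkl (37.1% and 46.4% in WT, 9.24% and 31.0% in cKO) and at Elmo3 (53.8% and 73.1% in WT, 9.71% and 78.8% in cKO), where the groups overlapped. The greatest rises were at Arhgdia, an inhibitor that holds small GTPases in the cytosol, with 50.6% and 52.0% in WT and 73.5% and 86.2% in cKO. They were followed by Rhog, which acts upstream of ELMO, with 3.19% and 35.2% in WT and 32.1% and 50.8% in cKO, and by Racgap1 with 39.3% and 45.3% in WT and 51.0% and 67.9% in cKO. Values of Rhog overlapped, and those of Arhgdia and Racgap1 did not.

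The long genes with the pattern most like Elmo1 across the 10 libraries, by Euclidean distance of the percent of the window covered, were Uvrag (13.0), Ostf1 (13.4) and Tbl1xr1 (13.7) among 2490. Uvrag, a gene of 256 kb, had 11 of 30 regions lost. Its H3K27ac cover was 30.1% and 22.5% in WT and 9.35% and 15.1% in cKO. Tbl1xr1, of 140 kb, had 7 of 21 lost and Ostf1, of 116 kb, had 1 of 4. Elmo1, of 518 kb, had 28 of 58. Percent cover takes no account of window length, so these numbers of lost regions cannot be compared directly. The depth of each library is shared by these values.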

How the data were processed

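CUT&RUN libraries of mouse BMDMs were analyzed as region lists, 2 per group, grouped and numbered by the sample labels. The authors aligned paired reads to mm10 with Bowtie2 (version 2.3.4.1) and called regions with HOMER in its histone style, separately for each library. Per the file headers, peaks of 500 bp at least 1000 bp apart were required to exceed the IgG control 4-fold with a Poisson p of 1e-04. The deposited lists give where each region starts and ends (bp, mm10), with a constant score, so signal per region was not analysed here and a region missed in a library may differ little in signal. The headers name a separate IgG control for the tagged, WT and cKO cells, so genotype and control cannot be told apart. The number of tags behind a region was not used, and no counting interval can be given.

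Lists were merged per mark and classified as described with the results (Python 3.11.15, numpy 2.4.6, pandas 2.3.3, matplotlib 3.10.9), and the classification was tested on simulated data. Genes were those of GENCODE M21. H3K36me3 body cover was compared by a two-sided exact permutation test with Benjamini-Hochberg adjustment over 7 genes. Genes named besides the members were the 5 of the pathway list with the greatest lost and the 3 with the greatest gained H3K27ac length, the 3 with the greatest fall and 3 with the greatest rise of H3K36me3 cover, the 3 long genes nearest Elmo1, and genes overlapping a member. A gene of the pathway list that this rule names is not reported here. The members and lists were chosen with earlier results of these data known. The labels name separate biological replicates. Alternatives were width filters, lists of equal number, stricter overlap, other windows, scaling to the total called length, a replicate block and each library left out in turn.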

Additional observations from a re-analysis of the deposited data

How the results depend on the processing

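With regions of at least 1 kb alone, the number of lost H3K27ac regions was 18 at Elmo1, 5 at Dock1 and 2 at Dock2, against 28, 21 and 15. Lists cut to an equal number of regions gave 15, 8 and 7 with the widest kept, and 14, 8 and 4 with the first in file order, a setting chosen after seeing the data. Base by base, in pieces of at least 200 bp, there were 77 lost pieces at Elmo1 and 25 at Dock2, since a region kept in part also gives pieces. Leaving out each library in turn gave 32 to 71 at Elmo1, 21 to 47 at Dock1 and 17 to 40 at Dock2, and 3 to 7 genes with a lost region. With a library left out the rule rests on fewer calls. Requiring 50% of a merged region to be covered, the body alone and a window of 20 kb on both sides left the counts of Elmo1, Dock1 and Dock2 within 1.5 times.

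The H3K36me3 differences kept their sign in 57 of 63 alternatives. With each library scaled to the mean total called length of the 4, a setting added after seeing the data, they were 1.20 points at Dock2, 16.6 at Rac1 and 1.98 at Rac2, the opposite sign to the unscaled differences. At Elmo1 the difference was -6.85 points without cKO replicate 2, over a range of -6.85 to 10.8 with a library left out. At Rac1 it was 8.62 points without cKO replicate 1 and 1.46 without WT replicate 2, over a range of -10.2 to 8.62. The ranges were -36.8 to -3.48 at Elmo2, -15.2 to -5.55 at Dock1, -21.4 to -3.44 at Dock2, -11.2 to -1.89 at Dock5 and -28.9 to -5.46 at Rac2, in each case smallest in size without cKO replicate 1. With 2 against 2 libraries no p could pass the threshold under any setting. A replicate block gave the same differences (1.97 points at Elmo1 and -10.4 at Dock1) with an exact sign-flip p of at least 0.5, and the replicate numbers mark no shared animal in the labels (correlation of deviations -0.0965 for H3K27ac and 0.153 for H3K36me3). H3.3-HA cover of Elmo1 was 10.1% with regions of at least 1 kb against 13.0%, and 12.1% to 13.9% with a replicate left out. The causes of these shifts were not tested.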
